A study of Mus musculus with 15 samples.

Results

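The lens of the mouse embryo was compared at embryonic stage E16.5 (3 libraries) with stage E14.5 (3 libraries), 2 days earlier. This is the last interval of a series of 15 RNA-seq libraries. The 6 libraries were taken by their stage labels, and no measured value entered the choice. All lenses were micro-dissected from wild-type C57BL/6NTac embryos, and each library came from 1 pool, of 17 lenses at E16.5 and of 18 lenses at E14.5, which the labels call a biological replicate. The remaining 9 libraries (lenses at E10.5 and E12.5 and whole embryos, 3 each) entered the same fit, so that all groups share 1 estimate of spread. Expression is given in FPKM (fragments scaled for the length of the transcript and the depth of the library, as the authors deposited them), summed over the transcripts of a gene. The number of reads behind each value is unknown.

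Lens fibres form throughout life from the epithelial cells that cover the front of the lens. A differentiating cell leaves the cell cycle, elongates, fills its cytoplasm with crystallins, builds a membrane skeleton of beaded filaments and lastly degrades its nucleus and organelles, which leaves the lens core transparent. The nuclease Dnase2b, which digests fibre DNA, is a well-known agent of that last step, and defects in many of these genes cause cataract.

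In the E16.5 lens relative to E14.5, genes that rose by 2-fold outnumbered genes that fell by 2-fold. Of 14 crystallin genes 8 rose, and of 30 genes of DNA replication and mitosis 28 fell. Of 14532 genes tested, 868 (5.97%) were higher at E16.5 and 586 (4.03%) were lower at a Benjamini-Hochberg adjusted p under 0.05 in limma on log2(FPKM + 1). These shares are the background for the counts in the gene lists below. At an unadjusted p under 0.05, 24.1% of all genes tested differed in either direction. At 2-fold or more, 233 genes (1.6%) were higher and 42 (0.289%) were lower. The median log2 fold change was 0.66 among the genes that were higher and -0.50 among those that were lower, against 0.00704 over all genes tested. On this scale the change of genes with low values is understated, and 85 of the 868 genes averaged under 1 FPKM at E14.5. The 6 libraries did not overlap between stages for 862 of the 868 higher genes, 575 of the 586 lower genes and 27.4% of all genes tested. Higher genes made up 59.7% of the calls, but 46.5% after quantile normalization and 35.1% once crystallins were removed and library totals equalised. Higher and lower genes numbered 595 and 383 without E14.5 replicate 1, 574 and 297 without E14.5 replicate 3, 529 and 293 without E16.5 replicate 1, and 514 and 297 without E16.5 replicate 2. The split at 2-fold (84.7% higher) stayed between 75.8% and 88.3% under every alternative run.

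**Figure D1:**
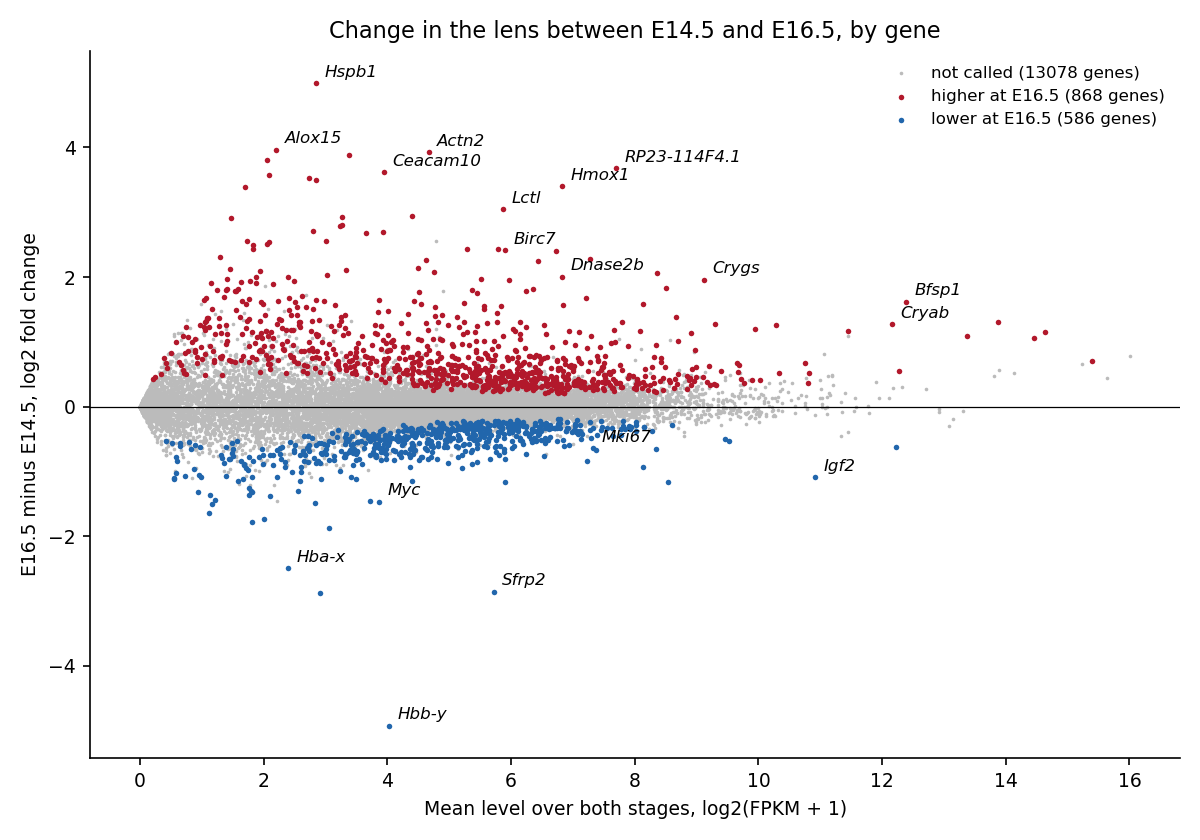
Each point is a gene, placed by its mean level over both stages (log2(FPKM + 1), horizontal) and its log2 fold change, E16.5 minus E14.5 (vertical). The 868 genes called higher reach a log2 fold change of 4.996 (Hspb1) and the 586 called lower reach -4.92 (Hbb-y), and all other genes are grey.

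Libraries of a stage resembled each other more than libraries of the other stage, with Pearson's r across genes of 0.9896 to 0.9918 within stages and 0.979 to 0.9873 between them (genes are not independent replicates). Replicate 3 of E16.5 lay nearest to E14.5. It was the lowest of the 3 E16.5 libraries for 558 of the 868 higher genes (64.3%, against 32.6% of all genes tested) and the highest for 363 of the 586 lower genes (61.9%, against 29.7%). Its position was not tested against any cause. Without it 744 genes were higher and 543 were lower.

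Hspb1 showed the highest fold change. It encodes the small heat shock protein HSP27, a chaperone that binds unfolding proteins and actin filaments. Hspb1 (chromosome 5, 135887919 to 135889563, build mm10) stood at 51.5, 47.1 and 23.9 FPKM in E16.5 replicates 1, 2 and 3, against 0.12, 0.28 and 0.35 FPKM in the E14.5 replicates, a log2 fold change of 4.996 ± 0.28 (SE; adjusted p = 5.21e-08). The E14.5 values were near zero and far below every E16.5 value. The gene had been higher earlier, with means of 3.04 FPKM at E10.5 and 1.07 at E12.5, so that E14.5 was its lowest stage.

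The 250 bases before the annotated start of Hspb1 are shown beside those of Ceacam10, another of the 10 genes with the highest fold change, and Sfrp2, the protein-coding gene with the lowest apart from a globin. The sequences are from RefSeq on GRCm38.p6, plus strand, at chr5:135887669-135887918 (Hspb1), chr7:24776954-24777203 (Ceacam10) and chr3:83766071-83766320 (Sfrp2). Capitals mark the letters GAANNTTC or TTCNNGAA, searched on both strands, which are 2 adjoining units of the heat shock element.
Hspb1: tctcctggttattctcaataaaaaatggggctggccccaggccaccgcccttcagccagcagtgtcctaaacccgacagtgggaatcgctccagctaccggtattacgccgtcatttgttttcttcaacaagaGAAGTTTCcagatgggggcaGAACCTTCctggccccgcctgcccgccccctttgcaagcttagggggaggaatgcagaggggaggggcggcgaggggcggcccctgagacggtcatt
Ceacam10: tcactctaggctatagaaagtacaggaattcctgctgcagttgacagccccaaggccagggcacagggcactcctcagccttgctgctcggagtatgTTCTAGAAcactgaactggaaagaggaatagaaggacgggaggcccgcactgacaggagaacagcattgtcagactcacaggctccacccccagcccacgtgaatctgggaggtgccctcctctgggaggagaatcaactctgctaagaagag
Sfrp2: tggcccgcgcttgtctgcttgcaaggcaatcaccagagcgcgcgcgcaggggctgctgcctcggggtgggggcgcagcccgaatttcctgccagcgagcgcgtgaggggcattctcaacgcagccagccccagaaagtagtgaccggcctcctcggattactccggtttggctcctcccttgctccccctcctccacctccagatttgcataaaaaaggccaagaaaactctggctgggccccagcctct
Hspb1 holds 2 matches, Ceacam10 holds 1 and Sfrp2 holds 0. These letters occurred in 9.62% of the 9727 promoters of tested genes, in 49 of 597 promoters of the higher genes (8.21%) and in 44 of 440 promoters of the lower genes. Of the 10 highest genes 5 had a RefSeq promoter, of which 2 held the letters, and Actn2, 4931440J10Rik and Zfyve28 held none, while Greb1, among the 10 lowest, held 1 match. A match is a description of the letters and not evidence of a bound factor.

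Alox15, Actn2 and Ceacam10 came next among known protein-coding genes. Alox15 encodes 12/15-lipoxygenase, an enzyme that peroxidizes membrane lipids and attacks organelle membranes. Alox15 (chromosome 11, 70344152 to 70352031) stood at 25.9, 13.3 and 13.6 FPKM at E16.5, against 0.14, 0.28 and 0 FPKM at E14.5 (3.97 ± 0.20; adjusted p = 2.17e-08). Actn2, an actin cross-linker best known from the Z-disc of muscle, stood at 104, 127 and 64.5 FPKM, against 3.42, 7.66 and 5.52 FPKM (3.93 ± 0.37; adjusted p = 9.57e-06). Of 11 cardiac and skeletal muscle markers none was called higher and 1, Des, was called lower (-1.02 ± 0.26), though not without E14.5 replicate 1, E16.5 replicate 1 or E16.5 replicate 2 (-0.99 to -0.89). Their summed level was 21.8 to 26.7 FPKM at E16.5, against 15.1 to 18.9 FPKM at E14.5. Most of it came from Tnni1, at 23.6, 20.6 and 19.55 FPKM against 15.17, 14.48 and 12.97 FPKM. At each stage 9 of the 11 averaged under 1 FPKM. Des was near the floor, with means of 0.05 FPKM at E16.5 and 1.15 FPKM at E14.5. Ceacam10, a secreted member of the carcinoembryonic antigen family, stood at 56.3, 61.2 and 41.9 FPKM, against 2.65, 4.08 and 3.48 FPKM (3.61 ± 0.16; adjusted p = 7.76e-09). For Alox15, Actn2 and Ceacam10 the lowest E16.5 library lay several-fold above the highest E14.5 library. Zfyve28, which encodes an endosomal protein with a lipid-binding zinc finger, also rose, by 3.53 ± 0.30. Its exons overlap Gm42848 on the other strand.

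The remaining genes of the 10 highest were RNA genes or overlapping models. RP23-114F4.1, a long noncoding RNA that GENCODE lists as Gm42744 on chromosome 5, stood at 758, 858 and 619.6 FPKM at E16.5, against 55.5, 65.4 and 50.6 FPKM at E14.5 (3.68 ± 0.14; adjusted p = 1.87e-09). It averaged 0.07 FPKM at E12.5, so that nearly all of its level was reached in the last 2 intervals. Gm13883 rose by 3.88 ± 0.18, 4931440J10Rik by 3.81 ± 0.22 and 9330175E14Rik by 3.58 ± 0.32. Each overlaps exons of a gene on the other strand, namely D430041D05Rik, Ints6 and Nlrc5, and whether the counting used strand is not given in the sources used here. It is therefore unknown whether reads of the 2 strands were kept apart, although the partners rose less, by 1.64 ± 0.21, 0.50 ± 0.11 and 2.25 ± 0.16. Gm28635 spans Ctnnd1, Tmx2 and Selenoh on the same strand. It stood at 40.4, 7.25 and 18.8 FPKM, against 0, 3.64 and 0 FPKM (3.50 ± 0.86; adjusted p = 0.0187), and it was not called without E16.5 replicate 1 (2.94), E14.5 replicate 1 (3.13) or E14.5 replicate 3 (3.13).

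**Figure D2:**
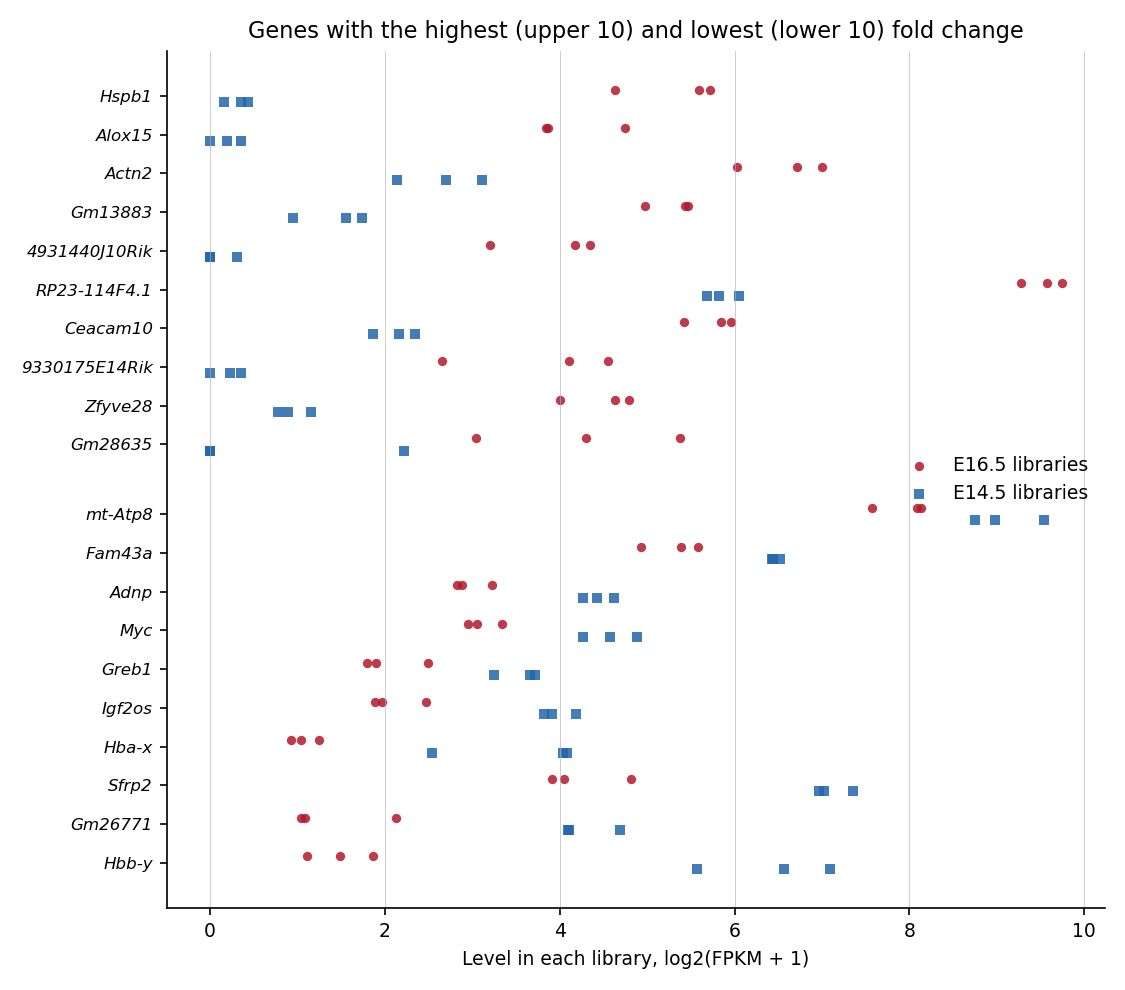
Level of the 10 genes with the largest rise and of the 10 with the largest fall in each of the 6 libraries, as log2(FPKM + 1), with E16.5 as circles drawn above E14.5 as squares. In all 20 genes the 2 stages do not overlap, which the naming rule required.

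The crystallins are the proteins that fill the fibre. Of 14 crystallin genes tested 8 were higher and none was lower (background 5.97% and 4.03%), with a median log2 fold change of 0.92; at an unadjusted p under 0.05, 13 were higher and none was lower. The count was 6 without E14.5 replicate 1 or 3 or E16.5 replicate 1 or 2, and 3 after quantile normalization. Crygs, a late gamma-crystallin, stood at 1184, 1350.4 and 804 FPKM at E16.5, against 266, 285 and 284 FPKM at E14.5 (1.96 ± 0.15; adjusted p = 1.06e-06). Crybb2, a beta-crystallin that becomes abundant after birth, stood at 68.7, 66.4 and 31.6 FPKM, against 10.7, 12.0 and 12.6 FPKM (2.07 ± 0.25; adjusted p = 9.59e-05). Cryab, the alpha-crystallin that is also a general small heat shock protein, stood at 7553, 7691 and 6185 FPKM, against 2674, 3019 and 3121 FPKM (1.28 ± 0.14; adjusted p = 3.97e-05); its exons overlap Hspb2 on the other strand. Every E16.5 library lay above every E14.5 library in these 3 genes, with replicate 3 the lowest at E16.5. The gamma-crystallins Crygb, Crygc, Crygd, Crygf and Cryge rose by 1.15 ± 0.25, 1.09 ± 0.18, 1.05 ± 0.26, 1.30 ± 0.27 and 0.70 ± 0.20. They are closely related genes between which reads can be split wrongly, so the values of single genes are uncertain. Cryga (0.78 ± 0.26; adjusted p = 0.0738) and Crybb1 (0.66 ± 0.20; adjusted p = 0.0558) missed the threshold.

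Cryaa, Cryba1 and Nufip2 could not be compared. Cryaa was listed at 0, 0 and 140912 FPKM at E16.5, against 111417, 0 and 0 FPKM at E14.5. Cryba1 was listed at 0, 0 and 101407 FPKM, against 83497, 81759 and 78722 FPKM. Nufip2, whose gene lies beside Cryba1, was listed at 0, 0 and 82.9 FPKM, against 94.5, 90.7 and 82.0 FPKM. A listed 0 beside replicates this high can be a failed estimate, so the 3 genes were left out of the tests. Without them the crystallins took 28.2%, 30.4% and 26.4% of the summed FPKM at E16.5, against 18.7%, 20.5% and 20.3% at E14.5. The means were 28.3% ± 2.0 and 19.8% ± 0.98 (SD, n = 3 each), a difference of 8.48 percentage points whose exact two-sided permutation p of 0.1 is the smallest that 3 against 3 libraries can give. With Cryaa and Cryba1 counted as listed the difference was 5.10 points (exact p = 0.2).

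Of 16 genes of fibre membranes, beaded filaments and other fibre products 8 were higher and none was lower (background 5.97% and 4.03%), with a median of 0.52. At an unadjusted p under 0.05, 13 were higher and none was lower, while 24.1% of all genes tested differed. Bfsp1 and Bfsp2 encode filensin and phakinin, the 2 subunits of the beaded filament. Bfsp1 (chromosome 2, 143826528 to 143863173) stood at 9344, 11291 and 7753 FPKM at E16.5, against 2622, 3396 and 3151 FPKM at E14.5 (1.62 ± 0.20; adjusted p = 0.000115). Bfsp2 stood at 4221, 4938 and 3517 FPKM, against 1646, 1988 and 1959 FPKM (1.17 ± 0.20; adjusted p = 0.00195). The stages did not overlap for either subunit. Lctl, a klotho-family membrane protein (its exons overlap Zwilch on the other strand), stood at 182, 195 and 129 FPKM, against 18.9, 22.6 and 16.46 FPKM (3.05 ± 0.17; adjusted p = 5.21e-08). Birc7, an inhibitor-of-apoptosis protein also called livin, rose by 2.42 ± 0.15, and Fabp5, a fatty acid carrier, rose by 2.29 ± 0.19. Lgsn, a lens protein related to glutamine synthetase, rose by 1.81 ± 0.26, with means of 3.997 FPKM at E16.5 and 0.40 FPKM at E14.5.

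The channels and adhesion molecules of the fibre membrane changed less. Mip, the fibre water channel, stood at 6870.1, 8358 and 6829.9 FPKM at E16.5, against 6383, 6914 and 5029.9 FPKM at E14.5 (0.27 ± 0.19; adjusted p = 0.424), and the stages overlapped. The connexin Gja3 (0.45 ± 0.17; adjusted p = 0.127) was not called. Lim2, the second most abundant intrinsic protein of fibre membranes, rose by 0.56 ± 0.16 (adjusted p = 0.0403), but it was not called when any library except E16.5 replicate 3 was left out (0.49 to 0.59). Of 15 membrane skeleton genes 3 were higher, among them Actn2 and Ank3 (0.39 ± 0.10), and none was lower. The count was 1 without E14.5 replicate 1 or E16.5 replicate 2, and 2 without E14.5 replicate 3, E16.5 replicate 1 or E16.5 replicate 3. Of 19 capsule and basement membrane genes Col4a4 (1.93 ± 0.23), a collagen chain that joins the capsule late, and Lama5 (0.39 ± 0.11) were higher. Without any 1 library other than E14.5 replicate 2, 1 of the 19 was higher.

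Of 26 genes tied to the breakdown of the nucleus and organelles, among them parts of the nuclear envelope, 9 rose and 2 fell. The background was 5.97% and 4.03%, and the median of the list was 0.18. Dnase2b (chromosome 3, 146580985 to 146615596) stood at 226, 275 and 183 FPKM at E16.5, against 55.9, 63.7 and 47.2 FPKM at E14.5 (2.01 ± 0.18; adjusted p = 5.4e-06). No E16.5 library came near the E14.5 range. Beside Alox15, the other risers act in autophagy, mitophagy or membrane lipid breakdown. Optn, a mitophagy receptor, rose by 0.66 ± 0.14, and Gabarapl1, a protein of the autophagosome membrane, by 0.64 ± 0.12. Pla2g16, a phospholipase that acts on organelle membranes of lens fibres, reached a mean of 1030.0 FPKM at E16.5, against 656 FPKM at E14.5 (0.64 ± 0.15). Wipi1, Pink1, Sqstm1 and Gabarap rose by 0.54, 0.45, 0.38 and 0.30. The core autophagy genes Atg5 (-0.12 ± 0.10; adjusted p = 0.549), Atg7, Ulk1 and Becn1 were not called. Both that fell hold the nuclear envelope together. Lmnb1, a lamin, fell by 0.53 ± 0.12 (adjusted p = 0.0155), and Lbr, the receptor that anchors it, fell by 0.52 ± 0.14 (adjusted p = 0.0279). Lmnb1 was not called without E14.5 replicate 3, E16.5 replicate 1 or E16.5 replicate 2 (-0.52 to -0.40). Lbr was not called without any 1 library other than E16.5 replicate 3 (-0.56 to -0.43). The count of higher genes was 4 without E16.5 replicate 2.

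Of 23 lysosomal genes, 7 were higher and none was lower (background 5.97% and 4.03%), with a median of 0.23. At an unadjusted p under 0.05 the counts were 11 and 0, while 24.1% of all genes tested differed. The aspartic protease Ctsd stood at 819, 883 and 752 FPKM at E16.5, against 534, 633 and 508 FPKM at E14.5 (0.55 ± 0.13; adjusted p = 0.0159), without overlap. Ctsc, a peptidase that activates other proteases, rose by 0.78 ± 0.15, the proton pump subunit Atp6v1b2 by 0.48 ± 0.11 and the cysteine protease Ctsl by 0.46 ± 0.11. The count of 7 was 2 without E14.5 replicate 1, 3 without E16.5 replicate 1 or 2 and 4 without E14.5 replicate 3. Ctsd was not called without any of these 4 libraries (0.49 to 0.55). Of 15 calpains and caspases 4 were higher (26.7%, background 5.97%), among them the calpains Capn5 (1.02 ± 0.12), Capn1 (0.69 ± 0.15) and Capn2 (0.31 ± 0.09). With only the most abundant transcript of each gene 0 of the 15 were called, and 2 were called without E16.5 replicate 2. The lens-preferred calpain Capn3 was at a mean of 7788 FPKM at E16.5, against 9607 FPKM at E14.5, which was not a called difference (adjusted p = 0.446).

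Genes of DNA replication and mitosis fell almost as a block. Of 30 tested, 28 were lower at E16.5 (background 4.03%) and none was higher, with a median log2 fold change of -0.62. Rrm2, a subunit of the enzyme that makes deoxynucleotides, stood at 29.7, 25.3 and 33.4 FPKM at E16.5, against 55.3, 45.6 and 65.1 FPKM at E14.5 (-0.88 ± 0.13; adjusted p = 0.000497). Mki67, a marker of cycling cells, stood at 119, 112 and 151 FPKM, against 199.6, 162 and 235 FPKM (-0.63 ± 0.16; adjusted p = 0.0194). The mitotic kinase gene Cdk1 fell by 0.80 ± 0.14, the cyclin Ccnb1 by 0.74 ± 0.14, the replication clamp Pcna by 0.74 ± 0.12 and the topoisomerase Top2a by 0.66 ± 0.15. Cenpf (-0.59 ± 0.19; adjusted p = 0.0592) and E2f1 (0.25 ± 0.09; adjusted p = 0.0952) were not called. In relative values of bulk tissue, fewer dividing cells, a smaller share of dividing cells in the lens and less RNA per dividing cell cannot be told apart.

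The fall was uneven over libraries. Set against each gene's mean over the 6 libraries, the median of the 30 genes was -0.34, -0.55 and -0.06 on the log2 scale in E16.5 replicates 1, 2 and 3, against 0.30, 0.15 and 0.49 in the E14.5 replicates. E16.5 replicate 3 and E14.5 replicate 2 thus lay closest together, without overlap of these medians. The count of 28 was 13 without E14.5 replicate 3, 14 without E16.5 replicate 2, 19 without E16.5 replicate 1 and 21 without E14.5 replicate 1, while 29 were lower without E16.5 replicate 3. None of the 30 was called when the fit held only the 6 libraries of these stages. In that fit limma called 134 genes in all lower. At an unadjusted p under 0.05 in that fit, 29 of the 30 were lower and 1 was higher. The share of all genes past that threshold was not computed for that fit, so the count of 29 has no background. Mki67 was not called without E14.5 replicate 1, E14.5 replicate 3, E16.5 replicate 1 or E16.5 replicate 2 (-0.62 to -0.51).

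**Figure D3:**
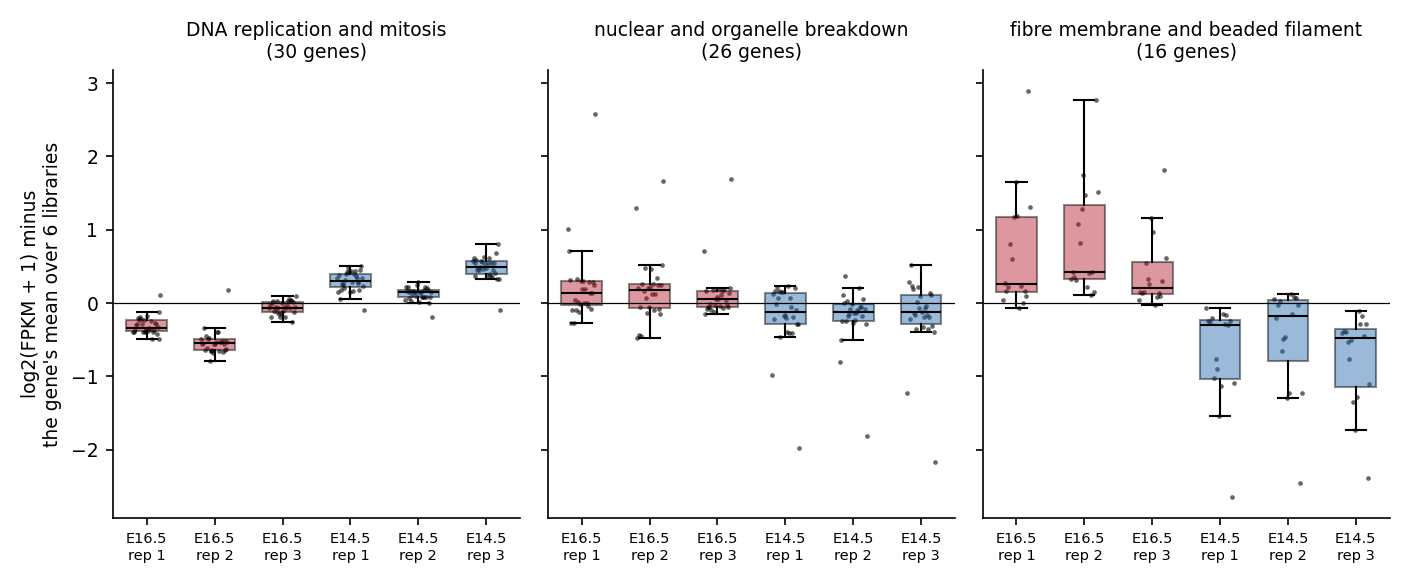
Members of 3 gene lists in each library, as log2(FPKM + 1) minus the gene's mean over the 6 libraries; boxes give the median and quartiles, whiskers reach to 1.5 times the box height, and each dot is a gene. The 30 genes of DNA replication and mitosis have medians of -0.34, -0.55 and -0.06 at E16.5 (left) and 0.30, 0.15 and 0.49 at E14.5 (right), while the 16 fibre genes are shifted the other way.

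Regulators of the cell cycle did not move together. Of 16 genes of cell cycle exit, Ccng1 (0.68 ± 0.11) and Cdkn1c (0.52 ± 0.12), the inhibitor p57 of differentiating fibres, were higher, while the cyclin Ccnd2 (-0.50 ± 0.10) and E2f5 (-0.34 ± 0.08) were lower. Cdkn1c was not called without E14.5 replicate 1 (0.41), and 1 of the 16 was lower without E14.5 replicate 1 or 3. Cdkn1b stood at 72.3, 71.8 and 74.7 FPKM at E16.5, against 70.1, 72.4 and 71.1 FPKM at E14.5 (0.03 ± 0.06; adjusted p = 0.786). Myc, a growth regulator that drives entry into the cycle, stood at 6.73, 7.31 and 9.09 FPKM, against 22.9, 18.3 and 28.6 FPKM (-1.46 ± 0.16; adjusted p = 5.58e-05), with a wide gap between the stages.

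Apart from a globin and its own antisense partner, Sfrp2 had the largest fall of the named genes, and some growth genes of the fetus fell less steeply. Sfrp2, a secreted Wnt antagonist of the early lens, stood at 14.01, 15.5 and 27.2 FPKM at E16.5, against 124, 129 and 162 FPKM at E14.5 (-2.85 ± 0.19; adjusted p = 3.25e-07). Its antisense partner Gm26771 fell by 2.88 ± 0.24, and whether reads of the pair were kept apart is unknown for the reason given above. Igf2, the fetal insulin-like growth factor, stood at 1181, 1382 and 1403 FPKM, against 2961, 3233 and 2273 FPKM (-1.08 ± 0.16; adjusted p = 0.000801), and Igf2os, on its other strand, fell by 1.87 ± 0.17. Both stages were fully separated in Sfrp2 and in Igf2. Of 12 imprinted growth genes Igf2, H19 (-0.63 ± 0.18) and Mest (-0.66 ± 0.13) were lower and Cdkn1c was higher. The count of lower genes was 2 without E14.5 replicate 2, E14.5 replicate 3, E16.5 replicate 1 or E16.5 replicate 2. Lin28b, an RNA-binding protein of fetal cells that blocks let-7 maturation, stood at 28.0, 32.4 and 34.3 FPKM, against 65.6, 53.6 and 53.9 FPKM (-0.85 ± 0.09; adjusted p = 1.89e-05). Igf2bp3 (-0.40 ± 0.08) and Igf2bp1 (-0.37 ± 0.08), which bind Igf2 messages, completed the 3 of 13 lens RNA-binding protein genes that were lower; none was higher.

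Other genes among the 10 lowest were of mixed kind. Greb1 fell by 1.48 ± 0.17, Adnp by 1.46 ± 0.21 and Fam43a by 1.16 ± 0.16. Exons of Greb1 overlap Gm48140 on the other strand. With only the most abundant transcript of each gene, Greb1 (adjusted p = 0.0764) and Adnp (log2 fold change -0.01) were not called. The mitochondrial gene mt-Atp8, whose short reading frame overlaps mt-Atp6, fell by 1.16 ± 0.22. Hbb-y and Hba-x, globins of primitive red blood cells, stood at 1.16, 1.80 and 2.63 FPKM and at 1.06, 0.90 and 1.37 FPKM at E16.5, against 135.6, 46.4 and 93.4 FPKM and 16.01, 4.83 and 15.4 FPKM at E14.5. They fell by 4.92 ± 0.38 and 2.48 ± 0.43. The adult-type globin Hbb-bs stood at 256, 188 and 341 FPKM, against 388, 196 and 249 FPKM (-0.07 ± 0.33; adjusted p = 0.954), so that the 2 kinds of globin did not move alike.

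Few transcription factors of the lens passed the test. Of 22, none was higher and 1 (4.55%), Sox11, was lower (-0.78 ± 0.19, adjusted p = 0.0188 in limma). The background was 5.97% higher and 4.03% lower, and at these shares a list of this size would hold few calls as well. Sox11 was not called without E14.5 replicate 1, E14.5 replicate 3, E16.5 replicate 1 or E16.5 replicate 2 (-0.78 to -0.68). At an unadjusted p under 0.05 in limma, 3 of the 22 were higher and 2 lower, while 24.1% of all genes tested differed. Pax6, the master regulator of eye development, stood at 329.9, 303 and 322 FPKM at E16.5, against 324, 304 and 332 FPKM at E14.5 (-0.01 ± 0.06; adjusted p = 0.974). Prox1 (0.09 ± 0.13), Maf (0.24 ± 0.14) and Hsf4 (0.38 ± 0.19), factors of the fibre programme, and Foxe3 (-0.24 ± 0.13), a factor of the epithelium, were not called either. A missed threshold does not show that these levels were equal.

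Genes of the lens epithelium were mixed, 5 of 15 being higher and Sfrp2 lower (background 5.97% and 4.03%). The higher ones were Dapl1 (1.28 ± 0.29), Dkk3 (0.67 ± 0.15), Wnt7b (0.61 ± 0.16), Npnt (0.60 ± 0.11) and Fgfr2 (0.21 ± 0.05). Their count was 2 without E14.5 replicate 3 or E16.5 replicate 2 and 3 without E14.5 replicate 1 or E16.5 replicate 1. It was 1 with only the 6 libraries of these stages in the fit. Among 22 Wnt pathway genes the receptors divided. Fzd1 (0.75 ± 0.09), Fzd6 (0.67 ± 0.12) and Fzd2 (0.53 ± 0.12) were higher with the secreted Dkk3, and Fzd3 (-0.61 ± 0.13) and Fzd7 (-0.36 ± 0.10) were lower with Sfrp2. Lower Wnt genes numbered 2 without E14.5 replicate 1, E14.5 replicate 3, E16.5 replicate 1 or E16.5 replicate 2. Of 22 BMP and TGF-beta genes the target Id1 (1.24 ± 0.16) and the transducer Smad1 (0.43 ± 0.10) were higher. Of 18 FGF response genes the phosphatase Dusp4 (0.63 ± 0.09) and the receptor Fgfr2 were higher. The ligand Dll1 was the single called gene of 14 in the Notch pathway, and it was not called without any 1 library other than E14.5 replicate 3. The shares higher were 9.09% of the BMP and TGF-beta list, 11.1% of the FGF list and 7.14% of the Notch list. Among all genes tested the share was 5.97%. In a list of 32 other cataract-linked genes, Epha5 (1.08 ± 0.20), the ephrin receptor Epha2 (0.61 ± 0.10), Dnmbp (0.61 ± 0.12) and Lemd2 (0.33 ± 0.08) were higher. With only the 6 libraries of these stages in the fit 0 of the 32 were called, and Epha2 (adjusted p = 0.207) and Epha5 (adjusted p = 0.148) were not called with the most abundant transcript.

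Some stress and metabolic genes rose. Hmox1, the enzyme that degrades haem, stood at 477, 413 and 238 FPKM at E16.5, against 33.1, 35.5 and 31.6 FPKM at E14.5 (3.40 ± 0.20; adjusted p = 6.3e-08), a gap that every library shared. It was the leading member of 31 glutathione and antioxidant genes, of which 5 were higher (also Gstm1, Gpx7, Gclc and Prdx5) and 1, Txn1, was lower (-0.28 ± 0.08). Txn1 was not called without E14.5 replicate 1, E14.5 replicate 3, E16.5 replicate 1 or E16.5 replicate 2 (-0.27 to -0.24), nor with a replicate block (adjusted p = 0.0553). Of 31 chaperones 1, Hspe1, was lower (-0.33 ± 0.10; adjusted p = 0.047), but not when any library except E14.5 replicate 2 was left out (-0.35 to -0.24), and 5 were higher. Of the higher ones 4 were the small heat shock proteins Hspb1, Cryab, Hspb8 (0.85 ± 0.17) and Hspb6 (0.68 ± 0.19). The large chaperones Hspa8 (-0.06 ± 0.13) and Hsp90ab1 (0.13 ± 0.16) were not called. The chaperone count was 3 without E14.5 replicate 1. Of 21 glycolysis genes 6 were higher and none was lower, led by the aldolase Aldoc, at 127, 118 and 88.4 FPKM, against 38.1, 43.3 and 50.8 FPKM (1.31 ± 0.16; adjusted p = 9.47e-05). The glucose transporter Slc2a1 rose by 0.36 ± 0.09 and the lactate exporter Slc16a3 by 0.56 ± 0.10. The glycolysis count was 3 without E14.5 replicate 1. With only the 6 libraries of these stages in the fit, 2 genes each of the antioxidant, chaperone and glycolysis lists were higher.

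Large housekeeping groups showed few calls. Of 79 cytosolic ribosomal protein genes 1 was lower (Rpl22l1, -0.51 ± 0.11), and of 73 respiratory chain genes 2 were higher (Ndufa13, 0.37 ± 0.09, and Ndufs5, 0.39 ± 0.09). Neither was called without E16.5 replicate 2 (0.33 and 0.31), Ndufa13 was not called without E14.5 replicate 3 (0.35), and Ndufs5 was not called without E14.5 replicate 1 (0.36). Among 38 proteasome and ubiquitin genes 1 was higher and 1 lower, and of 31 translation factors and of 30 cholesterol and fatty acid genes 1 each was lower. Of 13 histone genes H2afx (-0.53 ± 0.11) and H2afz (-0.52 ± 0.15) were lower. Of 19 ion pumps and transporters 3 were higher, among them the amino acid carrier subunit Slc3a2 (0.35 ± 0.08), and the cystine carrier Slc7a11 (-0.75 ± 0.19) was lower. Slc7a11 was not called without E14.5 replicate 1, E16.5 replicate 1 or E16.5 replicate 2 (-0.70 to -0.57), and H2afz was called in no fit that left out a library other than E14.5 replicate 2. Once crystallins were removed and library totals equalised, 6 proteasome and ubiquitin genes, 6 chaperones and 5 cholesterol and fatty acid genes were lower, and after quantile normalization 4 translation factors and 5 chaperones were lower.

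**Figure D4:**
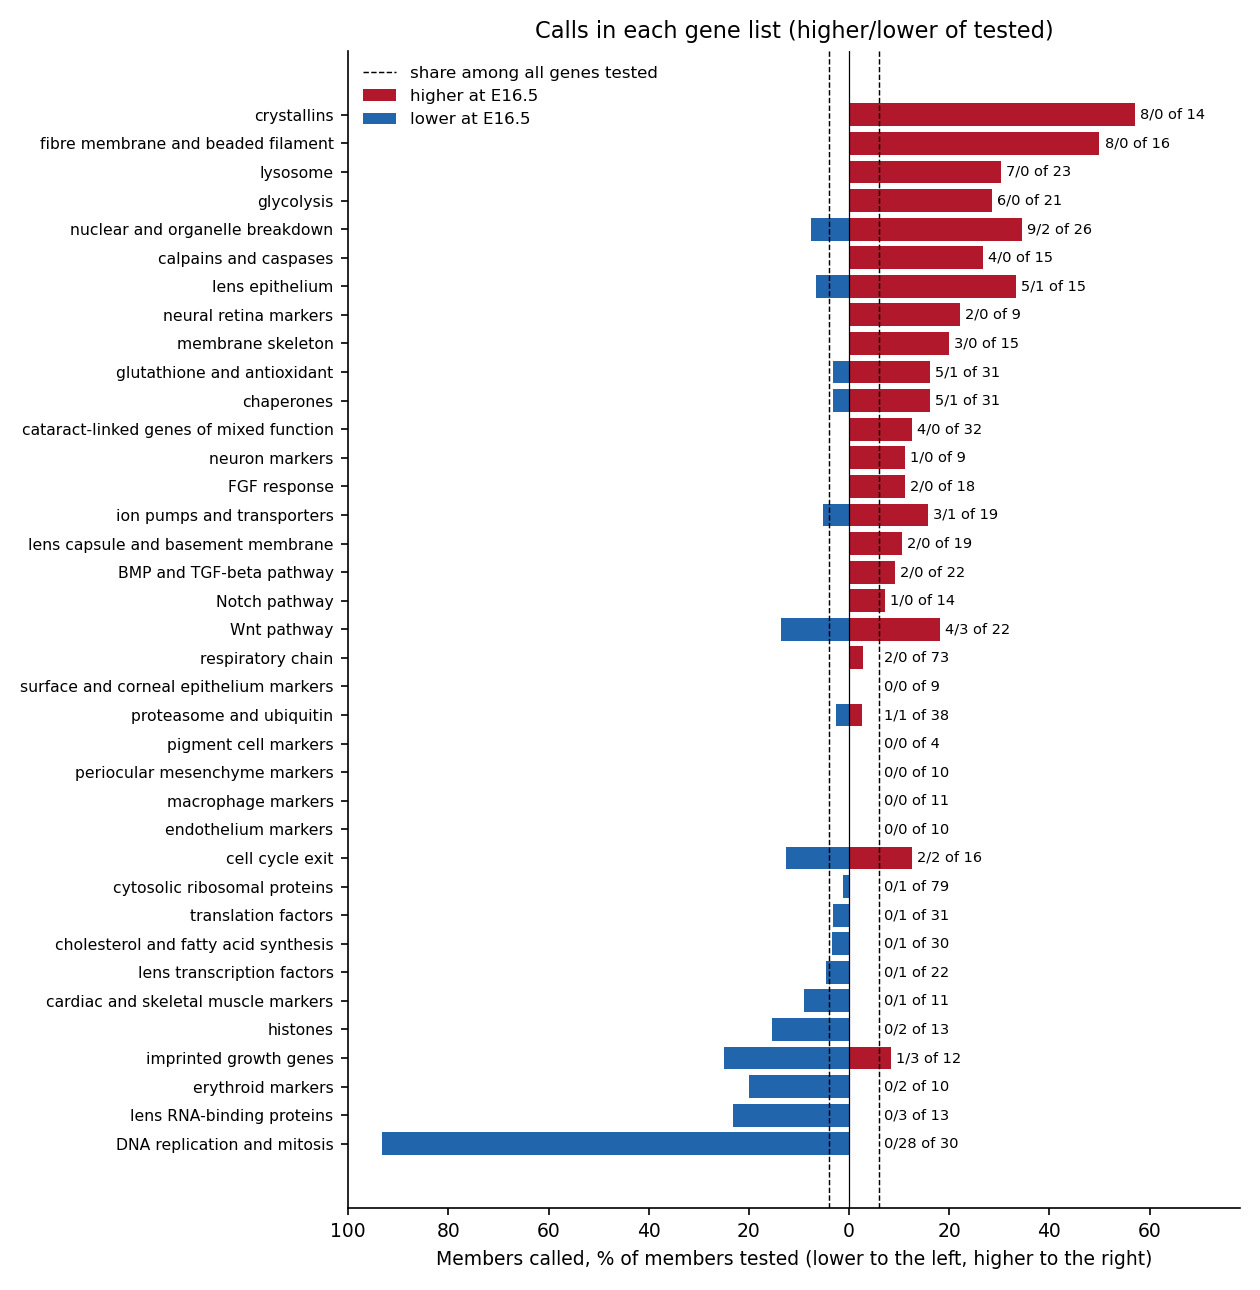
Percentage of tested members called higher at E16.5 (bars to the right) and lower (bars to the left) for each gene list, with the counts printed as higher/lower of tested. Dashed lines mark the shares over all 14532 genes, 5.97% higher and 4.03% lower; crystallins (8 of 14) stand farthest to the right and DNA replication and mitosis (28 of 30) farthest to the left.

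A further set of abundant genes was chosen after their values were seen, as called, at least 2-fold higher and with a mean of at least 500 FPKM at E16.5. Beside crystallins and beaded filament genes it held 9 others, among them RP23-114F4.1. Zbtb7b, a zinc finger transcription factor, stood at 643, 779 and 594 FPKM at E16.5, against 174, 168 and 136 FPKM at E14.5 (2.07 ± 0.15; adjusted p = 9.36e-07). Nupr1, a small stress-induced chromatin protein, stood at 698, 785 and 568 FPKM, against 174.5, 189 and 208 FPKM (1.83 ± 0.16). Hmgn3, a nucleosome-binding protein, rose by 1.39 ± 0.12, Rnf113a1, a ubiquitin ligase gene, by 1.25 ± 0.17, and Eif5b, a translation initiation factor whose exons overlap Rev1, by 1.20 ± 0.11. Lenep, a lens epithelial cell protein (1.14 ± 0.32), lies within Flad1 on the same strand (1.28 ± 0.14), so the split of reads between them is uncertain. The stages did not overlap in any gene of this set, which the choice by call made likely. They did not overlap in 99.3% of all higher genes either, against 27.4% of all genes tested.

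Some genes changed pace at E14.5. Taken with its sign, the change over the last interval exceeded that from E12.5 to E14.5 for 1357 genes (9.34%). It fell short of it for 971 (6.68%) by a test of the difference in limma. A fall that slowed counts among the greater changes (Hba-x, log2 changes of -6.09 and then -2.48). A fall that quickened counts among the smaller ones (Sfrp2, -1.14 and then -2.85). The E14.5 libraries enter both changes with opposite sign. Hmox1 was at means of 18.0 and 18.4 FPKM at E10.5 and E12.5 and then rose, with a difference between the 2 changes of 2.55 (adjusted p = 0.000368). Dnase2b had its steepest rise earlier, with a mean of 0.32 FPKM at E12.5 and a difference of -3.42 (adjusted p = 1.92e-05). Bfsp1 (-2.95) and Bfsp2 (-1.99) also rose less in the last interval than before it. Crygs rose at a like pace in both (difference 0.16; adjusted p = 0.738).

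The same genes were also read between E10.5 and E12.5, whose stage means share no library with this comparison. Both sets of calls come from the same fit and use the same estimate of spread for each gene. They are therefore not independent. Of the 868 genes higher at E16.5, 403 (46.4%) were also higher at E12.5 than at E10.5 and 174 (20%) were lower, while 29.5% and 26% of all genes tested were higher and lower there. Of the 586 genes lower at E16.5, 344 (58.7%) were lower at E12.5 and 98 (16.7%) were higher. The shared genes made up 9.42% of the 4280 genes higher and 9.1% of the 3779 genes lower in the earlier interval. Igf2, which averaged 1265 FPKM at E10.5 and 3248 FPKM at E12.5, is 1 of the 98 genes that turned.

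**Figure D5:**
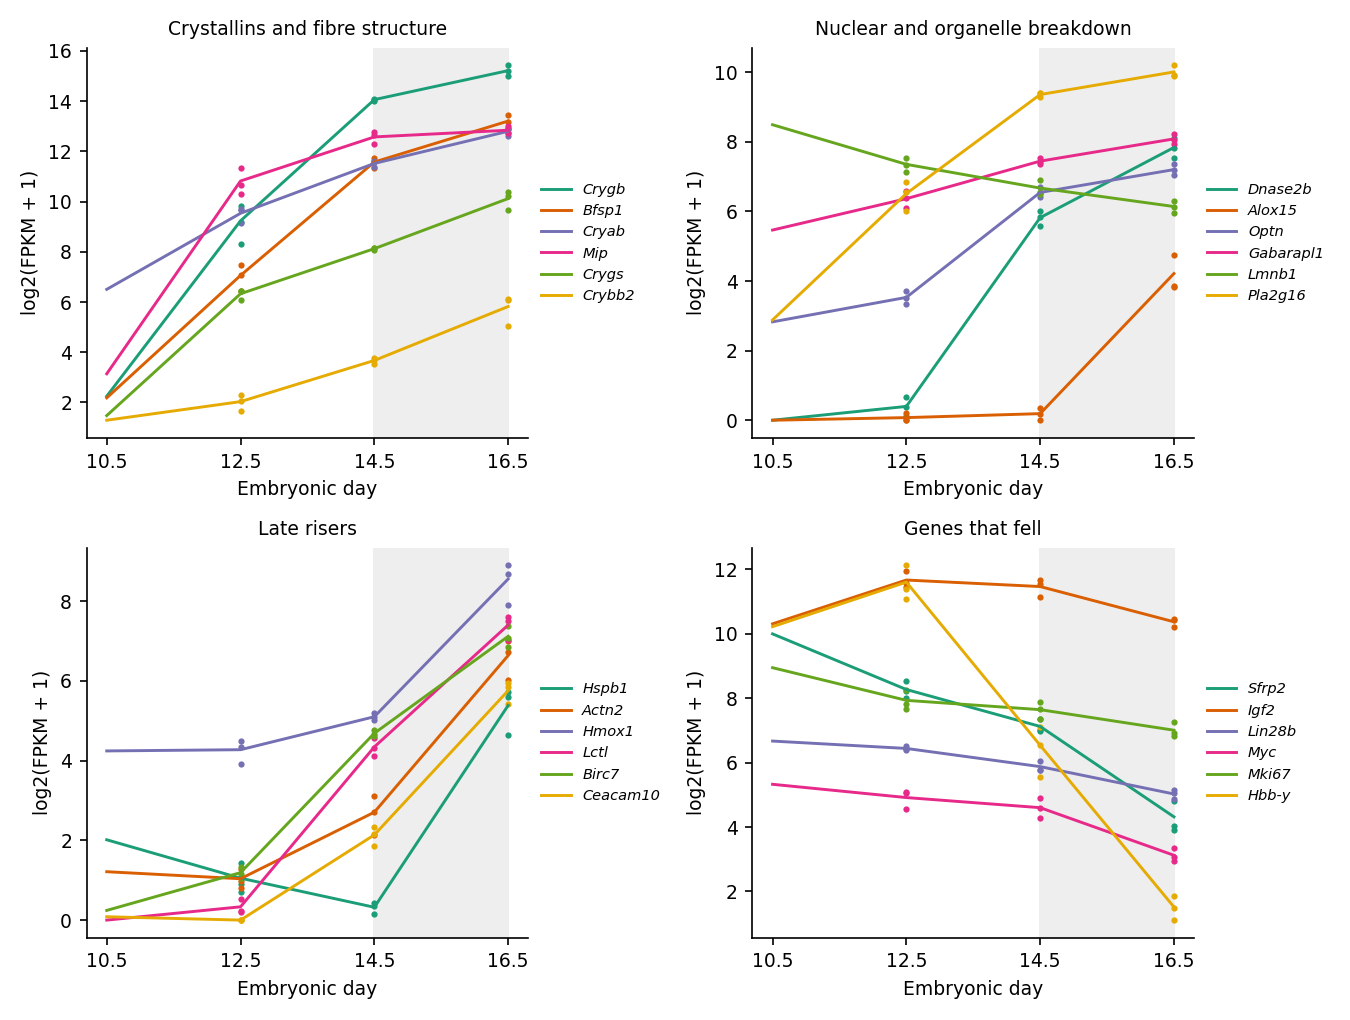
Course of 24 genes over the 4 stages as log2(FPKM + 1); lines join stage means, dots are single libraries at E12.5, E14.5 and E16.5, and the last interval is shaded. Hspb1 and Alox15 stay near 0 at E14.5 and rise in the shaded interval, Dnase2b has most of its rise before it, and Sfrp2 falls throughout.

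Summed markers of macrophages and periocular mesenchyme were low at both stages, while those of endothelium and red blood cells were higher. The sum of 11 macrophage markers was 6.88 to 16.6 FPKM at E16.5, against 6.32 to 17.3 FPKM at E14.5, that of 10 periocular mesenchyme markers 17.9 to 31.8 against 18.98 to 40.6 FPKM, and that of 10 endothelium markers 103 to 166 against 88.8 to 162.5 FPKM. No gene of these 3 lists was called by limma, and none was called among 4 pigment cell and 9 surface and corneal epithelium markers (summed levels of 31.1 to 44.4 against 20.9 to 29.8 FPKM, and 19.02 to 22.0 against 15.2 to 15.9 FPKM). At an unadjusted p under 0.05, 1 endothelium, 1 pigment cell and 1 surface epithelium marker were higher, and no macrophage or mesenchyme marker differed. Col1a1, a collagen of mesenchyme, was listed at 0 in 1 E16.5 library and 2 E14.5 libraries. Neural retina markers summed to 4.25 to 18.1 FPKM over 9 genes at E16.5, against 0.76 to 2.05 FPKM at E14.5, without overlap. Of these, 2 were higher, among them Six6 (1.23 ± 0.37; adjusted p = 0.0499), and 1 of the 9 was called when E16.5 replicate 1 or 2 or any E14.5 replicate was left out. Crx and Isl1, also retinal, were listed at 0 in all 6 libraries. Of 10 erythroid markers Hbb-y and Hba-x were lower, and the list summed to 349 to 675 FPKM, against 452 to 972.5 FPKM. Of 9 neuron markers Elavl4 was higher (0.86 ± 0.21), but not without E14.5 replicate 3 (0.79) or E16.5 replicate 2 (0.75). The part of these cells in the changes above was not tested.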

How the data were processed

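Total RNA of each lens pool was sequenced on an Illumina instrument, per the labels. Per the submitters' processing notes, TopHat2 2.0.9, Trimmomatic, Cufflinks and Cuffnorm were used with mouse build mm10. The authors deposited 1 table of FPKM for 48306 transcripts, each of which reaches 1 FPKM in at least 2 libraries, so silent transcripts are not in it. Summed FPKM was 1419164 to 1629915 at E16.5 and 1288056 to 1396211 at E14.5, while the median transcript was at 2.96 to 3.10 FPKM at E16.5 and 2.81 to 3.04 FPKM at E14.5, so the values are not set to a fixed total. The scaling between libraries is not given in the sources used here. Depth is unknown and no counting error can be given.

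FPKM were summed per gene symbol (14650 symbols). 172 transcripts of class code x (exonic overlap on the other strand) were dropped, which left 14615 symbols. Genes that did not reach 1 FPKM in at least 3 of the 15 libraries (80) and genes with a 0 beside a replicate of at least 50 FPKM at E16.5 or E14.5 (3) were left out, leaving 14532. limma 3.58.1 (R 4.3.3) fitted log2(FPKM + 1) with 1 mean per group over all 15 libraries (10 residual degrees of freedom, trended eBayes prior), with Benjamini-Hochberg adjustment over all genes tested and a threshold of 0.05. Replicate numbers were not used as pairs. The p-values rest on the spread between libraries of the same group, taken over all 15 libraries and not only over the stages compared. The code was tested on simulated data. Figures used Python 3.11.15 and matplotlib 3.10.9. Gene positions are from GENCODE on the same build, and 96.4% of the 30879 reference transcripts in the table carried the same symbol.

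The interval, the gene lists and the tests were chosen with earlier results of these data known. Genes were named by a rule: from the called genes that averaged 10 FPKM or more in either stage, without overlap and without a failed 0, the 10 with the largest rise and the 10 with the largest fall, then as many as 2 members at either end of a list, and some fixed genes. Further list members were named after their values were seen, because they were called. Alternatives were another pseudocount, other filters, other scalings, a replicate block, only the stages compared, a prior without trend, the most abundant transcript, class x transcripts kept, and each replicate left out. Some list members are counted but not reported here by name.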

Additional observations from a re-analysis of the deposited data

Results flagged for a closer look

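For 16 of the genes with the highest or lowest fold change, the change from E14.5 to E16.5 differed from the change from E12.5 to E14.5 by a test of the difference itself (limma, adjusted p under 0.05). The E14.5 libraries enter both changes. The difference was 5.70 for Hspb1 (adjusted p = 1.47e-05), 3.86 for Alox15, 3.70 for 4931440J10Rik, 3.38 for 9330175E14Rik and 3.01 for Zfyve28, which were all under 1 FPKM at E14.5. It was 2.46 for Gm13883, 2.30 for Actn2 and 1.49 for Ceacam10, which rose in both intervals and faster in the last. RP23-114F4.1 had -2.08, as its rise before E14.5 was larger.

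Among the genes that fell, the difference was -1.15 for Myc, -1.15 for Fam43a, -1.50 for Adnp, -1.71 for Sfrp2, -1.81 for Gm26771 and -1.95 for mt-Atp8. Sfrp2 and Gm26771 had already been falling before E14.5, and fell faster after it. The mitochondrial gene mt-Atp8 averaged 246 FPKM at E16.5, 560.1 FPKM at E14.5 and 318 FPKM at E12.5, so that its fall followed a higher E14.5 level. Hba-x had a difference of 3.60, since most of its fall, from a mean of 883 FPKM at E12.5, came before E14.5.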

How the results depend on the processing

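No called fold change of the named genes changed sign under any alternative. The balance of calls did turn, with 664 higher and 764 lower genes after quantile normalization and 667 higher and 1233 lower genes once crystallins were removed and library totals equalised. The deposited FPKM carry no depth, so low genes and small changes cannot be given a counting error. With only the stages compared, which leaves fewer residual degrees of freedom, 387 genes were higher and 134 lower, 21 of these by 2-fold, and 582 had a greater and 471 a smaller change than in the preceding interval. With the most abundant transcript of each gene, 423 were higher, 273 lower, 619 had a greater change and 455 a smaller one. In the fit without crystallins 608 had a smaller change. With a pseudocount of 0.1, 90 were lower by 2-fold. The crystallin share differed by 5.104 percentage points with Cryaa and Cryba1 counted as listed. Leaving out single libraries gave 514 to 865 higher and 293 to 551 lower genes, 192 to 265 and 34 to 55 by 2-fold, 863 to 1396 with a greater and 552 to 1055 with a smaller change, and a crystallin share difference of 7.456 to 9.455 points. Between 759 and 1163 of the 1454 calls kept their direction and their call in those fits, fewest without E16.5 replicate 2. Deviations from the stage means correlated at 0.106, 0.197 and 0.0555 between same-numbered libraries, so the numbers were not taken as pairs, although every library correlated best with its own number. A replicate block gave 860 higher and 559 lower genes, 238 and 42 by 2-fold, and 1330 with a greater and 940 with a smaller change; 1326 calls were kept. The cause of each of these shifts, where the construction of the alternative does not show it, was not tested.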
